A study of Homo sapiens with 11 samples.

Results

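The miR-106b-25 cluster comprises 3 miRNA hairpins, miR-106b, miR-93 and miR-25, which lie in an intron of the MCM7 gene and are transcribed together with it. Its members were the 6 mature miRNAs named for the arms of these hairpins, and all 6 were found among the 2576 miRNAs of the count tables. The small RNA libraries came from SH-SY5Y cells, a clonal subline of the neuroblastoma line SK-N-SH that takes on neuron-like features when exposed to all-trans retinoic acid (ATRA), and were made to ask how chronic oxidative stress alters miRNA expression during that differentiation. All cells received ATRA at 10 µM for 7 days. In the co-treatment experiment, hydrogen peroxide (H2O2) at 10 µM was present throughout these 7 days in 3 libraries and absent in 3 control libraries. In the pre-treatment experiment, 3 libraries came from cells that had 72 hours of H2O2 at 10 µM, which was then removed before ATRA was given, and 2 libraries came from controls without H2O2. The replicates were described as biological triplicates of a single cell line, and a further library was set aside as an outlier by the submitters and was not analysed here.

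A primary miRNA transcript is cut in the nucleus into hairpins, and each hairpin is cut again in the cytoplasm into a duplex of a 5p and a 3p strand. The strand that is loaded into Argonaute guides it to messenger RNAs, mainly through the seed, bases 2 to 8 of the miRNA, and the other strand is usually degraded. MCM7 encodes a subunit of the replicative DNA helicase, and the cluster is known for repressing the cell cycle inhibitor CDKN1A (miR-106b-5p and miR-93-5p) and the pro-apoptotic gene BCL2L11 (miR-25-3p).

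On GRCh37, the build of the deposited data (hg19), MCM7 (ENSG00000166508.19_9) occupied chr7:99689856-99699563 on the minus strand. All 3 hairpins lay in intron 13 (chr7:99691025-99691795, 771 bases) of its MANE Select transcript MCM7-201, which has 15 exons, and none overlapped an exon. In the order of transcription they were MIR106B (ENSG00000208036.1, chr7:99691616-99691697), MIR93 (ENSG00000207757.1, chr7:99691391-99691470) and MIR25 (ENSG00000207547.1, chr7:99691183-99691266), together spanning 515 bases.

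The mature sequences are shown first because the members differed in their response to H2O2 although they share a transcript. They were taken from RefSeq (GRCh38.p14), run 5′ to 3′, and carry the seed in capitals.
hsa-miR-106b-5p: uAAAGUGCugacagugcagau
hsa-miR-106b-3p: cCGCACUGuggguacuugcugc
hsa-miR-93-5p: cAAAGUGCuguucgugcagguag
hsa-miR-93-3p: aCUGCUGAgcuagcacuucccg
hsa-miR-25-5p: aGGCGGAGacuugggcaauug
hsa-miR-25-3p: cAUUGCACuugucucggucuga
miR-106b-5p and miR-93-5p share the seed AAAGUGC and were identical at 16 of 21 positions compared without gaps. Their 5 differences, counted from 1 at the 5′ end with the miR-106b-5p base first, were U1C, A11U, C12U, A13C and A20G, so that none fell in the seed. The GC content rose from 42.9% in miR-106b-5p to 50% in miR-25-3p, 52.2% in miR-93-5p, 57.1% in miR-25-5p, 59.1% in miR-93-3p and 63.6% in miR-106b-3p.

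The hairpins show how a pair of mature strands comes from the same precursor. In the RefSeq hairpins of MIR106B (82 bases) and MIR25 (84 bases), both mature arms are in capitals.
MIR106B: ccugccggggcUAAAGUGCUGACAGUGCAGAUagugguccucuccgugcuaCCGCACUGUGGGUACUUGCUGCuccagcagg
MIR25: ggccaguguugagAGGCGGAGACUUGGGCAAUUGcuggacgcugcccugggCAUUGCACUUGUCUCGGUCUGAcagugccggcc

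The 11 libraries held 5343953 to 8927582 counts (median 7425640), so that 3 counts, taken as the limit of detection, corresponded to 0.336 to 0.561 CPM (counts scaled to a common library total), for counting error only. Among neuronal marker miRNAs, 9 of 10 had more than 3 counts in every library, whereas miR-124-3p, which marks mature neurons, had 0 to 7 counts. The summed neuronal markers, per library total, moved with the groups, at 34065 to 42266 CPM in co-treatment controls, 18930 to 22691 CPM in co-treated cells, 16560 and 25240 CPM in the pre-treatment controls and 33406 to 38141 CPM in pre-treated cells. Most of this sum was miR-137, at 31155 to 33217 TMM-scaled CPM in co-treatment controls and 13615 to 17552 in co-treated cells, whereas miR-128-3p overlapped (1451 to 1927 against 1624 to 1778). The summed liver and muscle markers, almost all miR-122-5p, also moved, from 138 to 282 CPM in co-treatment controls to 232 to 551 in co-treated cells, and from 99.9 and 238 in pre-treatment controls to 549 to 789 in pre-treated cells. The part of these miRNAs in the results was not tested. In pre-treatment control 1, the summed blood markers (123 CPM) and epithelial markers (182 CPM) exceeded those of the other 10 libraries (16.3 to 34.8 and 28.8 to 40.2 CPM), and its log2 CPM correlated with control 2 at r = 0.916 against 0.971 to 0.989 between replicates of the other groups. The excess lay mainly in miR-223-3p (540 counts against 3 to 35) and miR-205-5p (1007 counts against 10 to 32). The blood markers miR-142-3p (182 counts against 24 to 100) and miR-142-5p (85 against 7 to 46) were also highest in this library, and miR-144-5p was lowest (1 against 9 to 55). Counts of miR-451a, miR-486-5p, miR-150-5p, miR-200c-3p and miR-141-3p were within the range of the other libraries. This library stood apart, and where it decides a pre-treatment fold change, ratio or count of calls, the value without it is also given.

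The cluster contributed a large part of the miRNA counts of these cells. Its members took up 15.8% to 18.4% of all counts in co-treatment controls, 19.2% to 21.7% in co-treated cells, 14.4% and 21.0% in the pre-treatment controls, and 18.3% to 22.6% in pre-treated cells. miR-93-5p was the most abundant of all miRNAs by mean CPM in each experiment, and miR-25-3p ranked 3 in co-treatment and 4 in pre-treatment. Within the cluster, miR-93-5p made up 52.8% to 68.1% of the counts and miR-25-3p 29.6% to 45.1%, whereas miR-106b-3p, miR-106b-5p, miR-93-3p and miR-25-5p each stayed between 0.0733% and 6.16%. CPM was not adjusted for length, and the members are 21 to 23 bases long. In bulk RNA a change in the cells present and a change in RNA per cell cannot be told apart.

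With H2O2 present during differentiation, miR-106b-5p fell about 4.09-fold while miR-106b-3p and miR-25-5p rose 1.95-fold and 2.19-fold. The abundant miR-93-5p and miR-25-3p did not pass the test, nor did miR-93-3p. Thus 3 of the 6 members were called differentially expressed by the exact test of edgeR (false discovery rate, FDR, under 0.05 and log2 fold change, log2FC, beyond 0.6 in either direction), 2 of them raised and 1 lowered. Of all 790 miRNAs tested, 26.2% were called, 10.6% raised and 15.6% lowered, and their median log2FC was -0.038 against 0.40 for the 6 members.

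miR-106b-5p, which shares its seed with miR-93-5p, had 2250, 1059 and 2294 CPM in control libraries 1, 2 and 3 (CPM scaled by the trimmed mean of M-values, TMM, within the experiment). In the co-treated libraries it had 381, 676 and 315 CPM. Every co-treated library lay below every control, and control 2 was the lowest of the controls. Controls averaged 1868 ± 701 CPM and co-treated cells 457 ± 192 CPM (SD, n = 3 each), which gave a log2FC of -2.03 (SE 0.34, edgeR exact test, FDR = 7.31e-06), which was the sixth lowest of all miRNAs tested. Omitting any single library left it called, with a log2FC between -2.36 and -1.80.

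miR-93-5p, from the same transcript and with the same seed, had 79352, 123899 and 103649 CPM in the controls. It had 113829, 122891 and 119589 CPM in the co-treated libraries. The highest value belonged to control 2, and the groups overlapped. The means of 118770 ± 4586 and 102300 ± 22304 CPM (SD, n = 3 each) differed by a log2FC of 0.22 (SE 0.19, edgeR exact test, FDR = 0.576).

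miR-25-3p, the abundant strand of the miR-25 hairpin, had 60350, 76858 and 88537 CPM in the controls. In co-treated cells it had 75622, 67700 and 76515 CPM, all within the range of the controls. The log2FC was -0.038 (SE 0.20, edgeR exact test, FDR = 0.935), and its sign depended on the scaling of the libraries.

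The partner strands of these 3 miRNAs had higher means in co-treated cells. miR-106b-3p, the partner strand of miR-106b-5p, had 2144, 2861 and 1002 CPM in the controls and 4295, 3430 and 3997 CPM in co-treated cells, without overlap. The means were 3907 ± 439 and 2002 ± 938 CPM (SD, n = 3 each), a log2FC of 0.96 (SE 0.31, edgeR exact test, FDR = 0.0202). This call was narrowly lost when control 3 (FDR = 0.0504), H2O2 library 1 (FDR = 0.0756) or H2O2 library 3 (FDR = 0.0501) was left out.

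miR-25-5p, the minor strand of the miR-25 hairpin, had 201, 284 and 144 CPM in the controls and 476, 404 and 499 CPM in co-treated cells. All co-treated libraries lay above all controls. The means were 460 ± 49.4 and 210 ± 70.2 CPM (SD, n = 3 each), a log2FC of 1.13 (SE 0.29, edgeR exact test, FDR = 0.00235), and the call held when any single library was omitted.

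miR-93-3p, the minor strand of the miR-93 hairpin, had 928, 1245 and 557 CPM in the controls and 1434, 1339 and 1347 CPM in co-treated cells. The groups did not overlap, yet the log2FC of 0.59 (SE 0.28, edgeR exact test, FDR = 0.132) missed the threshold. Without control 2, the highest of the controls, it was 0.89 (FDR = 0.0186). Groups did not overlap for 4 of the 6 members, and for 41.6% of all miRNAs tested.

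**Figure D1:**
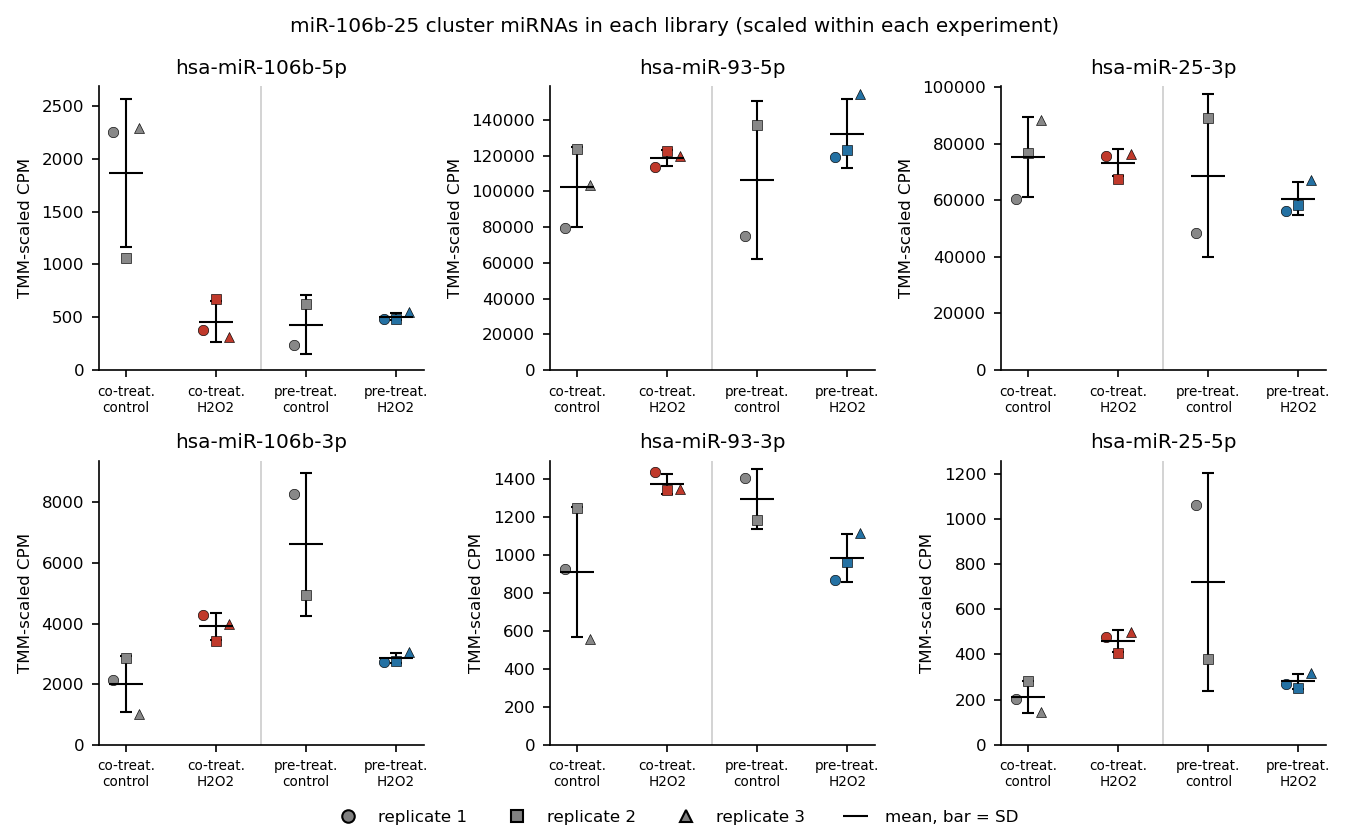
TMM-scaled CPM (vertical axes, from 0) of the 6 members in each library, scaled within each experiment, with points for the libraries, long bars for means and error bars for SD (n = 3, except n = 2 in pre-treatment controls). miR-106b-5p lies at 315 to 676 CPM in co-treated cells against 1059 to 2294 CPM in their controls, whereas miR-93-5p overlaps between groups.

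After pre-treatment with H2O2, 2 members were lower than in controls, miR-106b-3p by 2.32-fold and miR-25-5p by 2.57-fold, both of which had risen under co-treatment. The other 4 members, miR-106b-5p included, did not pass the test. Of all 868 miRNAs tested in this experiment, 15.3% were called, 5.41% raised and 9.91% lowered, and their median log2FC was -0.19 against -0.29 for the 6 members. The 2 control libraries differed widely, and the calls depended on the test and on single libraries, as given for each.

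miR-106b-3p had 8288 and 4950 CPM in the controls and 2738, 2778 and 3055 CPM in pre-treated cells. Both controls lay above all treated libraries, with control 1 the farthest. The means were 2857 ± 172 CPM (SD, n = 3) and 6619 ± 2360 CPM (SD, n = 2), a log2FC of -1.21 (SE 0.29, edgeR exact test, FDR = 0.0136). The log2FC was -0.75 without control 1 and -1.56 without control 2, and by the quasi-likelihood test of edgeR the FDR was 0.0590.

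miR-25-5p had 1062 and 379 CPM in the controls and 270, 251 and 319 CPM in pre-treated cells. Control 1 was far above all other libraries, and control 2 only slightly above the highest treated library. The log2FC was -1.36 (SE 0.43, edgeR exact test, FDR = 0.0394). Without control 1 it was -0.39 (FDR = 0.179) and was no longer called, and by the quasi-likelihood test of edgeR the FDR was 0.103.

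miR-106b-5p had 235 and 626 CPM in the controls and 484, 487 and 546 CPM in pre-treated cells. The treated libraries lay between both controls, and the log2FC was 0.23 (SE 0.42, edgeR exact test, FDR = 0.792). Its direction was set by the control retained, since the log2FC was -0.26 without control 1 and 1.08 without control 2, where it was called.

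miR-93-5p had 75142 and 137452 CPM in the controls and 119275, 123425 and 154424 CPM in pre-treated cells, again with overlap. Its log2FC was 0.32 (SE 0.33, edgeR exact test, FDR = 0.648), -0.0070 without control 1 and 0.79 without control 2, where it was called. miR-25-3p had 48311 and 89077 CPM in the controls and 56205, 58366 and 67165 CPM in pre-treated cells, all between the controls. Its log2FC was -0.18 (SE 0.32, edgeR exact test, FDR = 0.776), -0.51 without control 1 and 0.30 without control 2.

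miR-93-3p had 1405 and 1185 CPM in the controls and 870, 963 and 1117 CPM in pre-treated cells. The groups did not overlap, and the log2FC was -0.40 (SE 0.25, edgeR exact test, FDR = 0.466), or -0.22 without control 1. Groups did not overlap for 3 of the 6 members in pre-treatment, and for 46.0% of all miRNAs tested. No member was called by the exact test once any single H2O2 library was left out, with 1 or 2 members at an unadjusted p under 0.05. The quasi-likelihood test of edgeR called 0 of the 6 members, with 2 at an unadjusted p under 0.05, and 1.96% of all miRNAs.

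**Figure D2:**
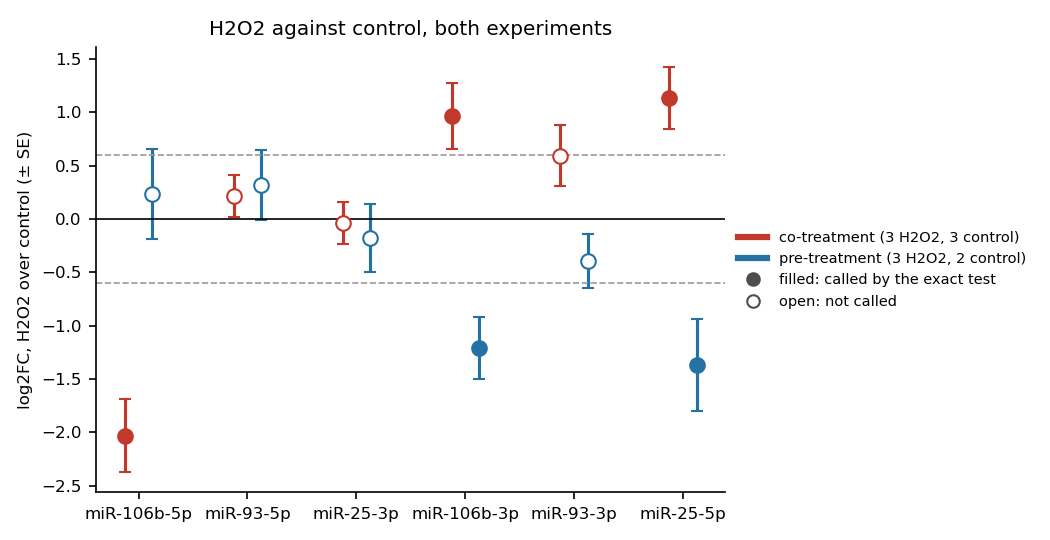
log2FC of H2O2 over control (vertical axis) for the 6 members in co-treatment (red) and pre-treatment (blue), with SE bars, filled symbols for members called by the exact test and dashed lines at an absolute log2FC of 0.6. miR-106b-3p and miR-25-5p lie above 0 in co-treatment (0.96 and 1.13) and below 0 in pre-treatment (-1.21 and -1.36).

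The responses were then compared between the experiments in a joint quasi-likelihood fit of the 11 libraries, as pre-treatment minus co-treatment. They differed for 4 of the 6 members (FDR under 0.05), beside 32.1% of the 764 miRNAs tested in both experiments. The difference was -2.88 on the log2 scale for miR-25-5p (SE 0.56, edgeR FDR = 0.00330), -2.52 for miR-106b-3p (SE 0.50, FDR = 0.00342), 2.06 for miR-106b-5p (SE 0.58, FDR = 0.0175) and -1.31 for miR-93-3p (SE 0.40, FDR = 0.0251). For the 2 abundant strands it was -0.15 for miR-93-5p (SE 0.31, FDR = 0.726) and -0.38 for miR-25-3p (SE 0.31, FDR = 0.358). Without pre-treatment control 1, the difference was -1.70 for miR-25-5p, -1.89 for miR-106b-3p and 1.62 for miR-106b-5p, and that of -0.99 for miR-93-3p was no longer past the threshold (edgeR FDR = 0.0789). The experiments had their own controls. A possible batch difference between them, which the labels do not name, cannot be told apart from the treatment schedule.

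The levels in the 4 groups, on a TMM scale shared by all 11 libraries were then set in order. miR-106b-5p was highest in co-treatment controls (1717 ± 696 CPM, SD, n = 3), followed by pre-treated cells (515 ± 39.2, n = 3), pre-treatment controls (461 ± 234, n = 2) and co-treated cells (459 ± 196, n = 3), and the last 3 groups overlapped. miR-106b-3p followed another order, with 7676 ± 3858 CPM in pre-treatment controls, 3917 ± 386 in co-treated cells, 2906 ± 202 in pre-treated cells and 1799 ± 781 in co-treatment controls, and no neighbouring groups overlapped. In pre-treatment control 2 alone, miR-106b-5p was at 626 CPM, above the mean of pre-treated cells, and miR-106b-3p at 4948 CPM, still above the mean of co-treated cells.

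The group means of the minor strands of the other hairpins had the same order as those of miR-106b-3p, but for these strands the order rested on pre-treatment control 1. In control 2 alone, miR-25-5p (379 CPM) and miR-93-3p (1184 CPM) lay below the mean of co-treated cells. miR-25-5p ranged from 856 ± 675 CPM in pre-treatment controls through 461 ± 52.5 in co-treated and 285 ± 35.0 in pre-treated cells to 189 ± 55.0 in co-treatment controls, with overlap between the first pair only. miR-93-3p ran from 1474 ± 410 through 1378 ± 19.2 and 1001 ± 139 to 819 ± 278 CPM, and among neighbours only co-treated and pre-treated cells were without overlap. For miR-93-5p, from 134695 ± 20339 CPM in pre-treated cells to 92598 ± 17343 in co-treatment controls, and for miR-25-3p, from 74838 ± 20071 CPM in pre-treatment controls to 61640 ± 6453 in pre-treated cells, all neighbouring groups overlapped.

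Because miR-93-5p and miR-106b-5p are cut from the same transcript, their counts were set against each other within each library, which needs no scaling between libraries. In co-treatment controls there were 35.3, 117 and 45.2 miR-93-5p counts for each miR-106b-5p count. In co-treated cells there were 299, 182 and 380. The groups did not overlap, and the mean log2 ratio rose from 5.84 ± 0.91 to 8.10 ± 0.54 (SD, n = 3 each), a difference of 2.26 or 4.80-fold. The two-sided exact permutation test gave p = 0.1, the smallest that 3 against 3 libraries allow, and 0.333 after adjustment over the 10 ratio tests. In pre-treatment the ratio was 320 and 219 in controls and 246, 254 and 283 in treated cells, a difference of -0.025 in log2 (exact permutation test, p = 1, where 0.2 is the smallest possible), or 0.25 without control 1. The co-treatment controls thus had a lower ratio than all 8 other libraries.

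The arms of each hairpin were compared in the same way. For miR-106b, the count of the 3p strand divided by that of the 5p strand was 0.953, 2.70 and 0.437 in co-treatment controls and 11.3, 5.08 and 12.7 in co-treated cells. This was an 8.64-fold higher ratio (log2 difference 3.11, exact permutation test, p = 0.1, adjusted 0.333), and in 2 of the 3 controls the 5p strand was the more abundant, as in no other library. In pre-treatment the ratio was 35.3 and 7.90 in controls and 5.65, 5.71 and 5.59 in treated cells, 2.95-fold lower with H2O2 (log2 difference -1.56, exact permutation test, p = 0.2, adjusted 0.333). Without control 1 the log2 difference was -0.48, and without control 2 it was -2.64.

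For miR-25, the 5p to 3p ratio was 2.30-fold higher in co-treated cells than in their controls (log2 difference 1.20, exact permutation test, p = 0.1, adjusted 0.333). In pre-treatment its log2 difference of -1.07 rested on control 1 (exact permutation test, p = 0.8, adjusted 0.889) and was 0.12 without it. The 3p to 5p ratio of miR-93 differed by 0.43 in log2 in co-treatment (exact permutation test, p = 0.3, adjusted 0.375) and by -0.77 in pre-treatment (exact permutation test, p = 0.2, adjusted 0.333), or by -0.21 without control 1 and -1.33 without control 2.

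The ratio between the 2 abundant strands varied less. There were 0.643 and 0.648 miR-25-3p counts for each miR-93-5p count in the pre-treatment controls and 0.471, 0.473 and 0.435 in pre-treated cells, without overlap (log2 difference -0.49, exact permutation test, p = 0.2, adjusted 0.333). In co-treatment the log2 difference was -0.26 (exact permutation test, p = 0.3, adjusted 0.375).

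**Figure D3:**
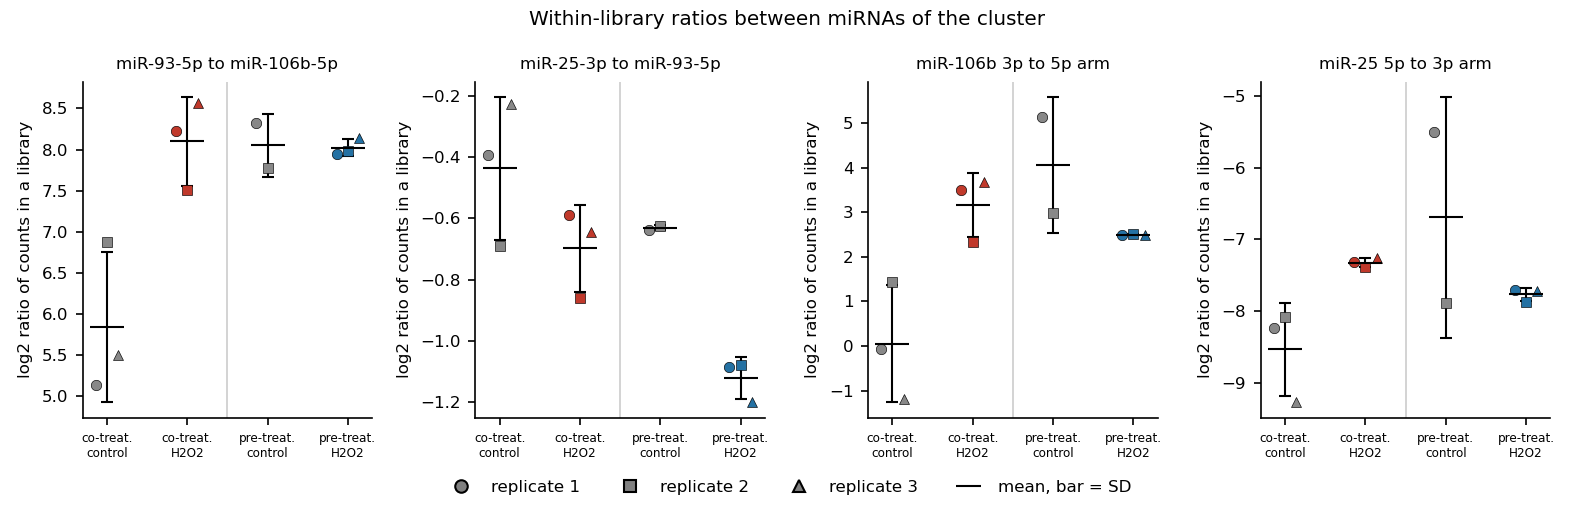
log2 of the ratio of counts between 2 members of the cluster within each library (vertical axes), for 4 of the 5 ratios computed, with points for the libraries, long bars for means and error bars for SD. The miR-93-5p to miR-106b-5p ratio averages 5.84 in co-treatment controls and 8.10 in co-treated cells.

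miR-106b-5p and miR-93-5p belong to the miR-17 seed family, whose other members come mainly from the paralogous clusters miR-17-92 and miR-106a-363. The family members that were tested beside them are shown with the seed in capitals, because their 3′ portions are so alike that reads could be assigned to the wrong member.
hsa-miR-17-5p: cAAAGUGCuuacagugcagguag
hsa-miR-20a-5p: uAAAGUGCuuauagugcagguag
hsa-miR-106a-5p: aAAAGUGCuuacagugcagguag
hsa-miR-20b-5p: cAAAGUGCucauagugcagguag
miR-106a-5p and miR-17-5p were identical at 22 of 23 positions, and miR-106b-5p and miR-17-5p at 18 of 21. Counts of miR-106a-5p, which reached only 1.88 to 20.5 CPM, are therefore uncertain.

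In co-treatment, 4 of the 6 tested miRNAs with the seed AAAGUGC were lowered and 0 raised by the exact test of edgeR, with the same counts by the quasi-likelihood test and 4 at an unadjusted p under 0.05, where 15.6% of all miRNAs tested were lowered. Besides miR-106b-5p these were miR-106a-5p (log2FC -1.66, SE 0.32), miR-17-5p (-1.64, SE 0.32) and miR-20a-5p (-0.78, SE 0.23), whereas miR-20b-5p (-0.20, SE 0.25) and miR-93-5p (0.22) were not called. The family median was -1.21 beside -0.038 for all miRNAs tested. miR-17-5p, the founding member of the family, had 4942, 2541 and 6590 CPM in controls and 1274, 2083 and 1169 CPM in co-treated cells, without overlap and with control 2 the lowest control, as for miR-106b-5p (edgeR exact test, FDR = 0.000143). miR-20a-5p had 21169, 19710 and 13701 CPM in controls and 10489, 12316 and 8919 CPM in co-treated cells, also without overlap. With libraries scaled by size only, 3 of the 6 were called lowered, beside 97 of all 790 miRNAs. After GC correction 3 were called lowered, from 4 uncorrected, with the median at -0.68 from -1.05 on the same miRNAs uncorrected. Among all miRNAs with a GC value, 13 were lowered after correction, from 63 uncorrected. With a replicate block and GC correction together, 0 of the 6 and 0 of all miRNAs were called. In that edgeR fit 3 of the 6 had an unadjusted p under 0.05, and the family median was -0.67.

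In pre-treatment, the exact test of edgeR called 0 of these 6 miRNAs, with 2 at an unadjusted p under 0.05 and 0 called by the quasi-likelihood test or DESeq2. Their log2FC ran from 0.23 for miR-106b-5p to 0.97 for miR-20b-5p and miR-106a-5p, with a median of 0.77 beside -0.19 for all miRNAs tested. Without control 1, 2 of the 6 were called raised, beside 134 of all 820 miRNAs tested, and the median was 0.43. Without control 2 all 6 were called raised, beside 228 of 819. With libraries scaled by size only, and in the fit of all 11 libraries, 2 of the 6 were called raised, beside 63 of all 868 and 53 of all 764.

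miR-25-3p has the seed of the miR-92 family, which includes the following miRNAs.
hsa-miR-92a-3p: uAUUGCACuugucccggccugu
hsa-miR-92b-3p: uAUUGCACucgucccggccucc
hsa-miR-32-5p: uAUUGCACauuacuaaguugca
hsa-miR-363-3p: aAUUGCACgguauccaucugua
Of the 5 tested miRNAs with the seed AUUGCAC, only miR-32-5p was called under co-treatment, at a log2FC of -1.14 (SE 0.28, FDR = 0.00157, edgeR exact test). Of all miRNAs tested in co-treatment, 15.6% were lowered. miR-25-3p (-0.038), miR-363-3p (-0.078), miR-92a-3p (0.56) and miR-92b-3p (0.62) were not called. In pre-treatment the exact test of edgeR called 0 of the 5, beside 15.3% of all miRNAs tested. Their log2FC ran from -0.69 to 0.29, with 0 at an unadjusted p under 0.05, and the quasi-likelihood test and DESeq2 called 0 as well. The family median was -0.18, beside -0.19 for all miRNAs tested. It was -0.012 without control 1 and 0.30 without control 2, beside 0.018 and 0.069 for all miRNAs. The absence of calls in this family did not hold with either control left out, in fits that rest on the other control alone. The seeds of miR-106b-3p, miR-93-3p and miR-25-5p were found in no other miRNA of the RefSeq table.

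**Figure D4:**
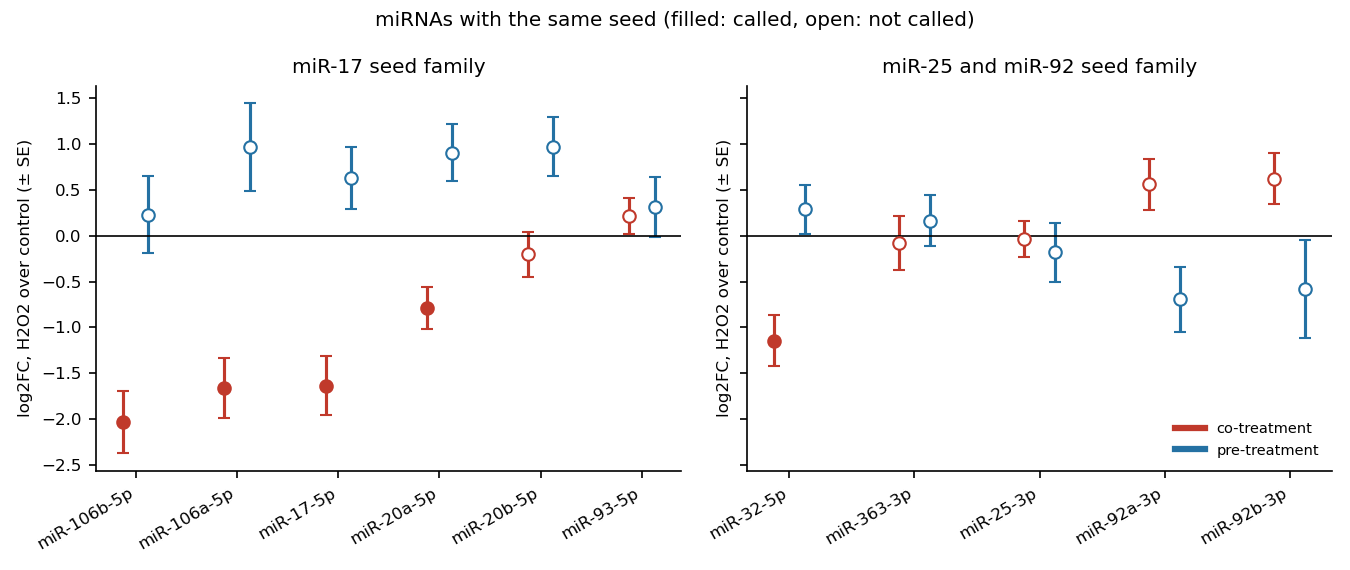
log2FC of H2O2 over control (vertical axes) with SE bars for the tested miRNAs that share the seed of miR-106b-5p and miR-93-5p (left) or of miR-25-3p (right), filled where called, in co-treatment (red) and pre-treatment (blue). In the left panel the co-treatment values run from -2.03 for miR-106b-5p to 0.22 for miR-93-5p, and all pre-treatment values lie above 0.

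The paralogous clusters were then compared by their listed mature miRNAs, each placed in a single cluster. miR-19b-3p and miR-92a-3p were counted in miR-17-92 only, although miR-106a-363 also holds hairpins for them (miR-19b-2 and miR-92a-2). Their counts cannot be assigned to a single locus, so the counts and medians below are not measurements of separate loci. In co-treatment, 7 of the 12 mature miRNAs of miR-17-92 were lowered and 0 raised (edgeR exact test, 7 at an unadjusted p under 0.05, median log2FC -0.91), with miR-19a-3p (-1.92, SE 0.29) and miR-17-5p the lowest and miR-92a-3p (0.56, SE 0.28) and miR-18a-3p (0.51, SE 0.33) not called. Of the 7 tested miRNAs of miR-106a-363, 3 were lowered and 0 raised (3 at an unadjusted p under 0.05, median -0.20). In the miR-106b-25 cluster 1 was lowered and 2 were raised, and of all miRNAs tested 15.6% were lowered and 10.6% raised (median -0.038). For miR-17-92 the count lowered was 4 without control 1, H2O2 library 1 or H2O2 library 3. Of all miRNAs, 60 of 757, 75 of 751 and 57 of 742 were then lowered. It was 7 without control 2 (2 raised) or control 3 (0 raised), beside 150 of 755 and 57 of 768. Without H2O2 library 2 it was 8 (1 raised), beside 114 of 766. After GC correction it was 3 of 10, from 7 of 10 uncorrected. Among all miRNAs with a GC value, 13 were lowered after correction, from 63 uncorrected. In pre-treatment, 1 of 12 miRNAs of miR-17-92 was lowered (miR-18a-3p, -1.68, SE 0.28) and 1 of 8 tested miRNAs of miR-106a-363 (miR-18b-3p, -2.17), with 0 raised in both clusters and 2 in each at an unadjusted p under 0.05, beside 9.91% of all miRNAs lowered and 5.41% raised. The median log2FC was 0.70 for miR-17-92 and 0.50 for miR-106a-363, beside -0.19 for all miRNAs tested. Without control 1 these medians were 0.38, 0.20 and 0.018, and without control 2 they were 1.02, 0.44 and 0.069. Without any single H2O2 library miR-17-92 had 0 called (edgeR exact test, 2 at an unadjusted p under 0.05 each time). Of all miRNAs, 5, 3 and 5 were raised and 8, 6 and 11 lowered without H2O2 library 1, 2 or 3. The absence of raised miRNAs in both clusters did not hold with either control left out. Those fits rest on the other control alone, and calls among all miRNAs rose in them too.

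The response of a miRNA was related to its base composition, which sets the members apart from each other. Among the 409 miRNAs whose mean CPM reached 10, 88.8% had a sequence under the same name in the RefSeq table. Across these, the co-treatment log2FC correlated with GC content at r = 0.66 (Spearman's rho 0.67). Across the 88.2% of 397 such miRNAs in the other experiment, the pre-treatment log2FC correlated at r = -0.39 (rho -0.44). miRNAs are not independent replicates, and they share the libraries. The 6 members followed these trends, with r = 0.90 (rho 0.83) in co-treatment and r = -0.76 (rho -0.66) in pre-treatment. The pre-treatment trend rested on control 1, without which r was -0.051 (rho -0.061) across miRNAs and -0.45 (rho -0.26) across the members. miR-106b-5p, the member lowest in GC, was the lowest in co-treatment, and the 3 members highest in GC were the 3 highest.

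When the trend with GC was removed from each library before the quasi-likelihood test of edgeR, miR-106b-5p in co-treatment was the only member still called (log2FC -1.57, FDR = 0.0472, from -1.89 without the correction on the same miRNAs). miR-106b-3p went from 1.15 to 0.51 (edgeR FDR = 0.287) and miR-25-5p from 1.32 to 0.88 (edgeR FDR = 0.0654), and miR-93-3p from 0.78 to 0.27. In pre-treatment, miR-106b-3p went from -1.50 to -0.80 (edgeR FDR = 0.0576) and miR-25-5p from -1.70 to -1.07 (edgeR FDR = 0.130). The correction also removes any response to H2O2 that runs with GC content, and the source of the trend was not tested.

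**Figure D5:**
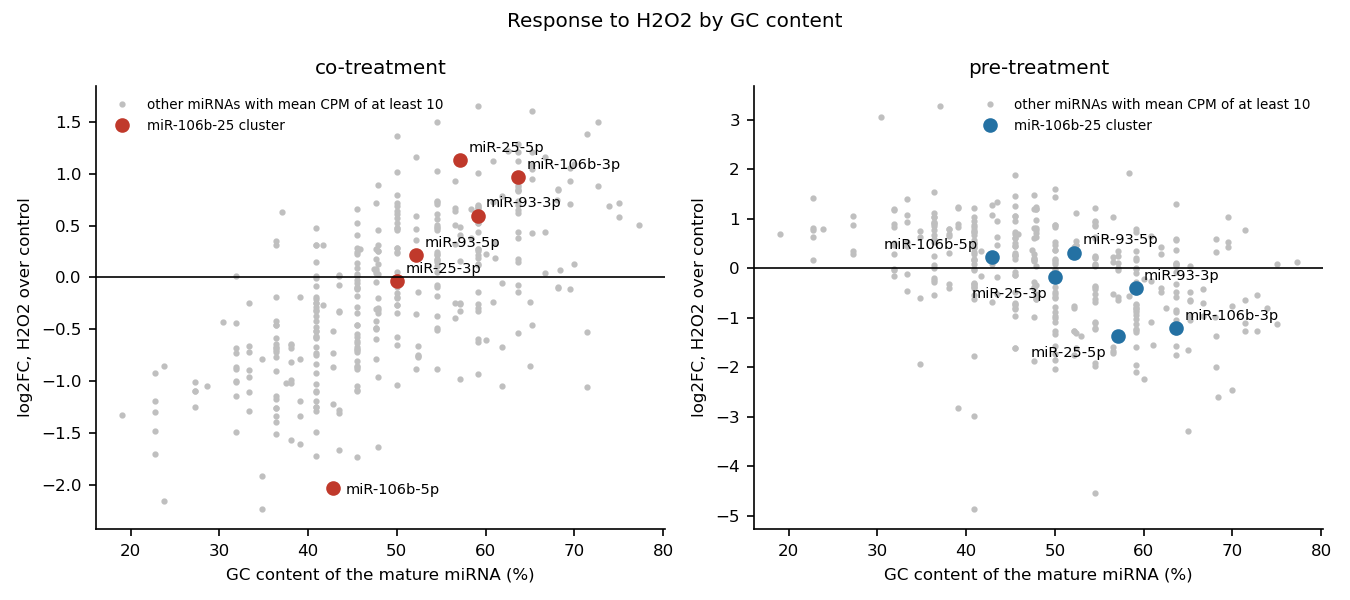
log2FC of H2O2 over control (vertical axes) against GC content of the mature miRNA in percent (horizontal axes) for miRNAs whose mean CPM reached 10 (grey) and for the 6 members (coloured, named). The members run from miR-106b-5p at 42.9% GC to miR-106b-3p at 63.6% GC, and the slope is upward in co-treatment and, with all 5 libraries, downward in pre-treatment (r = -0.39, and -0.051 without control 1).

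The miRNAs whose profile over the 11 libraries was most like that of miR-106b-5p, miR-93-5p or miR-25-3p were found by Pearson correlation of log2 CPM, after each experiment's mean was removed, among the 403 miRNAs whose mean CPM reached 10. For miR-106b-5p they were miR-17-5p (r = 0.96), miR-624-5p (0.94), miR-301a-5p (0.94), miR-19a-3p (0.94) and miR-18a-5p (0.93), of which miR-17-5p, miR-19a-3p and miR-18a-5p come from miR-17-92. Its own partner miR-106b-3p ranked 378 (r = -0.78) and miR-93-5p ranked 270 (r = -0.38). For miR-93-5p they were miR-873-3p (0.92), miR-140-3p (0.88), miR-151a-3p (0.85), miR-585-3p (0.82) and miR-769-5p (0.76), with miR-25-3p at rank 32 (r = 0.55). For miR-25-3p they were miR-664a-5p (0.86), miR-409-3p (0.81), miR-382-5p (0.77), let-7i-5p (0.76) and miR-654-3p (0.75). Without pre-treatment control 1, the same 5 stayed in the top 5 for miR-106b-5p, and 3 of 5 each for miR-93-5p and miR-25-3p, and the correlation of miR-106b-5p with miR-93-5p was -0.67. The place of the other members beside miR-93-5p also depended on this library. Without it miR-25-5p ranked 16 (r = 0.70, from rank 180), miR-93-3p 36 (0.62, from 107), miR-25-3p 60 (0.53, from 32) and miR-106b-3p 61 (0.53, from 175). The profiles share the same 11 libraries, their depth and the trend with GC, and groups differ within them.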

How the data were processed

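Small RNA libraries (QIAseq miRNA kit, NextSeq 500) were deposited as raw read counts per miRNA, which the authors made with FastQC 0.11.8, cutadapt 2.10, Bowtie2 2.4.1 (hg19) and HTSeq 0.7.2; the use of molecular identifiers and the miRNA annotation release are not given in the sources used here. The deposited tables of fold changes, p-values and FDR from the authors' edgeR 3.6.1 comparisons were not used. All 11 count columns were mapped to samples by name.

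Treated and control counts were compared within each experiment over all miRNAs by the exact test of edgeR 4.0.16 (R 4.3.3) with TMM scaling and Benjamini-Hochberg adjustment (FDR under 0.05, absolute log2FC above 0.6). miRNAs were kept if they exceeded the CPM that 5 counts make in the experiment's smallest library (0.936 in 3 or more libraries for co-treatment, 0.721 in 2 or more for pre-treatment). SEs and the difference between experiments came from quasi-likelihood fits. Ratios used a pseudocount of 0.5 and two-sided exact permutation tests (SciPy 1.17.1). DESeq2 1.42.0, other scalings, filters, thresholds, a replicate block, a loess GC correction and leaving out each library were alternatives, and the scripts were tested on simulated data.

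The members and gene lists were chosen with earlier results of these data known. Named miRNAs were the 6 members, the paralogous clusters, miRNAs sharing a seed with miR-106b-5p, miR-93-5p or miR-25-3p, and the 5 most alike each of these.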

Additional observations from a re-analysis of the deposited data

Results flagged for a closer look

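The response to H2O2 differed between the experiments for 4 members by the quasi-likelihood interaction test of edgeR, beside 32.1% of all 764 miRNAs tested. Pre-treatment minus co-treatment, on the log2 scale, it was -2.88 for miR-25-5p, -2.52 for miR-106b-3p, 2.06 for miR-106b-5p and -1.31 for miR-93-3p. With pre-treatment control 1 left out, the values were -1.70, -1.89, 1.62 and -0.99, and the last was no longer past the threshold (edgeR FDR = 0.0789). The difference for miR-93-3p was also past the threshold neither without co-treatment H2O2 library 1 (FDR = 0.0533) nor without pre-treatment H2O2 library 1 (FDR = 0.0637) or 2 (FDR = 0.0548), nor with library size only (-1.06, FDR = 0.0644). The labels name no batch, and a possible batch difference between the experiments cannot be told apart from the treatment schedule.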

How the results depend on the processing

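The fall of miR-106b-5p and the rise of miR-25-5p in co-treatment kept their direction under every alternative run. With DESeq2 or its size factors the same 3 members passed in co-treatment, and the same pair in pre-treatment.

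The count of all miRNAs called was 207 of 790 in co-treatment (84 raised) and 133 of 868 in pre-treatment (47 raised). With libraries scaled by size only it was 196 of 790 (99 raised) in co-treatment, and with DESeq2 size factors 216 of 790 (101 raised). With the filter in every library it was 202 of 604 (115 raised), and in a fit of all 11 libraries 90 of 764. The GC settings in co-treatment tested fewer miRNAs, 88.8% of the 409 whose mean CPM reached 10. On these it was 135 uncorrected (an alternative chosen after seeing the data) and 24 after GC correction. In pre-treatment it was 17 of 868 by the quasi-likelihood test and 61 of 1519 without a filter. On the 348 tested miRNAs with a GC value it was 61 uncorrected and 39 after GC correction. Leaving out a library gave 98 to 279 in co-treatment (125 and 113 without control 1 or 3, 128 and 98 without H2O2 library 1 or 3) and 9 to 449 in pre-treatment (285 and 449 without control 1 or 2, 13, 9 and 16 without H2O2 library 1, 2 or 3). The median log2FC of all miRNAs moved from -0.038 to 0.10 in co-treatment in the fit of all 11 libraries, and from -0.19 to -0.037 in pre-treatment without a filter.

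Members called in co-treatment were 4, with miR-93-3p as the fourth, with the filter in every library (log2FC 0.77, edgeR FDR = 0.0388) or uncorrected on the miRNAs with a GC value (0.78, edgeR FDR = 0.0405). They fell to 1 after GC correction and ranged from 2 to 4 with a library left out. In pre-treatment they fell from 2 to 1 with library size only, and to 0 by the quasi-likelihood test, without a filter, after GC correction or uncorrected on its miRNAs (edgeR, 2 at an unadjusted p under 0.05 in each), and ranged from 0 to 4 with a library left out. Members whose responses differed between experiments numbered 3 to 4 with a library left out.

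Some directions reversed. miR-25-3p in co-treatment was 0.062 with library size only, 0.020 without a filter, 0.16 with the filter in every library, 0.10 in the fit of all libraries, 0.14 uncorrected on the miRNAs with a GC value and -0.086 to 0.19 with a library left out. In pre-treatment with a library left out, miR-106b-5p ranged from -0.26 to 1.08 (-0.013 after GC correction), miR-93-5p from -0.0070 to 0.79 and miR-25-3p from -0.51 to 0.30. Pre-treatment ratios with a library left out ranged from -0.30 to 0.25 (miR-93-5p to miR-106b-5p) and -2.25 to 0.12 (miR-25 5p to 3p, chosen after seeing the data). The difference between experiments was 0.059 for miR-93-5p with library size only and -0.39 to 0.42 with a library left out, and -0.63 to 0.19 for miR-25-3p. The cause of these changes was not tested.

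Whether replicate numbers pair the libraries was not settled. Deviations of same-numbered libraries from their group means correlated at 0.043, -0.16 and -0.16 in co-treatment and 0.22 and -0.050 in pre-treatment. Not every library correlated best with its own number. Deviations within such small groups depend on each other, and those of the 2 pre-treatment controls are mirror images, so these values cannot exclude a pairing. With the replicate block, co-treatment had 111 miRNAs and 3 members called and pre-treatment 15 miRNAs and 0 members (edgeR, 2 at an unadjusted p under 0.05), and 2 members differed between experiments, with miR-106b-5p (edgeR FDR = 0.0815) and miR-93-3p (edgeR FDR = 0.0781) lost. With the replicate block and GC correction together 0 miRNAs and 0 members were called in each experiment (edgeR, 82 and 55 miRNAs, 2 and 1 members at an unadjusted p under 0.05), and miR-106b-5p in pre-treatment was -0.018. A library left alone in its group was assumed to vary like the other group. The GC trend and the profiles without pre-treatment control 1 were chosen after seeing the data.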
